A study of Mus musculus with 4 samples.

Results

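The transcripts described here are those of 10 cytotoxic lymphocyte effector genes, chosen by symbol from the 31053 genes of the count matrices: Gzma, Gzmb, Prf1, Nkg7, Ifng, Ccl5, Klrk1, Klrd1, Ctla2a and Il2rb. All 10 symbols were found, each on 1 row. Natural killer (NK) cells and cytotoxic T cells kill by releasing granules onto a target cell. Perforin, the product of Prf1, opens the target's membrane, and granzymes, the proteases encoded by Gzma and Gzmb, then enter and trigger death. The same lymphocytes secrete interferon gamma (Ifng) and the chemokine Ccl5, sense stressed cells through NKG2D (Klrk1), are tuned by receptors that contain CD94 (Klrd1), and respond to interleukin-15 through the receptor chain encoded by Il2rb.

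Single-cell RNA sequencing was carried out on live CD45+ leukocytes sorted from full-thickness excisional wounds of 3 mm in the back skin of male mice aged 8 weeks. The 4 libraries were Angptl4+/+ at 1 day postwounding (dpw), Angptl4+/+ at 5 dpw, Angptl4-/- at 1 dpw and Angptl4-/- at 5 dpw, 1 library each. Angptl4-/- mice lacked the secreted protein angiopoietin-like 4 in the whole body, so a difference between genotypes is not tied to loss of the gene in any one cell type. All 4 libraries are labelled C57BL6/J, but the study's methods name that strain for the wild-type mice only and give a separate repository source for the Angptl4-/- line, so loss of the gene and other genetic differences between the lines cannot be told apart, also for the receptor genes on chromosome 6. How many mice went into a library is not given in the sources used here, and with 1 library per group no difference between groups could be tested: intervals below are exact 95% intervals that cover counting error of unique molecular identifiers (UMIs) only. Levels are counts per 1e+06 UMIs of the cells in question (CPM), differences are log2 ratios of CPM, and a gene was counted as higher or lower past 2-fold where both groups together held at least 20 UMIs.

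The libraries held 20069 cell barcodes, of which 19827 passed the filters, and between 26981596 and 32962595 UMIs each; 50 barcode sequences occurred in more than 1 library. Angptl4 itself had 47 and 78 UMIs in the Angptl4+/+ libraries at 1 and 5 dpw and 0 in both Angptl4-/- libraries. Cells were clustered with the 10 genes kept out, and 518 cells formed a cluster whose 13 NK cell and T cell markers were all raised more than 2-fold. It made up 0.655% and 0.750% of the cells at 1 dpw (Angptl4+/+ and Angptl4-/-) and 4.59% and 4.64% at 5 dpw. Within it, 320 cells with at least 2 UMIs over Cd3d, Cd3e and Cd3g were gated as T cells. A further 174 cells with fewer than 2 of those and at least 2 UMIs over Ncr1, Klrb1c, Eomes and 4 Klra receptor genes were gated as NK cells, and 24 cells passed neither gate. The T gate held 25, 136, 21 and 138 cells and the NK gate 8, 83, 13 and 70 cells in the Angptl4+/+ libraries at 1 and 5 dpw and the Angptl4-/- libraries at 1 and 5 dpw, the order used throughout. In the cells of the NK gate 12 of the 13 NK cell and T cell markers were detected. The other, Cd3e, was at 0, and the gate itself kept it low. Of the 10 dendritic cell markers 7 were at 0. All 10 neutrophil markers were detected, summing to 34775, 1946, 15337 and 4017 CPM in the NK-gated cells.

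In the mouse genome (GRCm38), 8 of the genes lie on chromosomes 7, 10, 11, 13, 14 and 15, and the remaining pair lie side by side. Klrd1 spans chr6:129591782-129598775 on the plus strand and Klrk1 chr6:129610323-129623864 on the minus strand, 11547 bases apart, within the cluster of NK receptor genes. Promoter windows were matched for 7 of the 10 genes (RefSeq, GRCm38.p6). Motifs were searched only in the 240 bases of a window that end 11 bases before the annotated start. The core RUNX motif, TGTGGT on either strand, was found for 5 of these 7 genes (Gzma, Gzmb, Prf1, Nkg7 and Klrk1). It was in 13.6% of all 32851 windows, where a gene can have more than 1 window. RUNX proteins, Runx3 among them, are transcription factors of cytotoxic lymphocytes. The 240 bases that end 11 bases before the start are shown for the granule genes Gzma, Gzmb and Prf1 and for Klrk1, 4 of the members that carried the motif, 5′ to 3′ on the gene's strand with the motif in capitals.
Gzma, chr13:113100992-113101231, minus strand: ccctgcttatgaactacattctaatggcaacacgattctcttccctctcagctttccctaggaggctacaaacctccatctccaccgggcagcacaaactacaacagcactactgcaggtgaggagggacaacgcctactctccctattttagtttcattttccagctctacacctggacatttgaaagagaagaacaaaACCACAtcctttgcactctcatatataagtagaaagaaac
Gzmb, chr14:56262345-56262584, minus strand: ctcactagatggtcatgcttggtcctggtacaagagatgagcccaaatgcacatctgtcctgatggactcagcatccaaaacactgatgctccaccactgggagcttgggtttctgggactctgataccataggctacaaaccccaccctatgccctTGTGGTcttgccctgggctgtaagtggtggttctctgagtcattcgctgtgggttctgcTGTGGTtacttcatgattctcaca
Prf1, chr10:61297586-61297825, plus strand: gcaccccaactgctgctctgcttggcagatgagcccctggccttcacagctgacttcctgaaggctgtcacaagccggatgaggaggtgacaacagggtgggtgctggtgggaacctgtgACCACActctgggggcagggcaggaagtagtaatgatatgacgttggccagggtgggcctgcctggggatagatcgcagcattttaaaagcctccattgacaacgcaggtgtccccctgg
Klrk1, chr6:129623875-129624114, minus strand: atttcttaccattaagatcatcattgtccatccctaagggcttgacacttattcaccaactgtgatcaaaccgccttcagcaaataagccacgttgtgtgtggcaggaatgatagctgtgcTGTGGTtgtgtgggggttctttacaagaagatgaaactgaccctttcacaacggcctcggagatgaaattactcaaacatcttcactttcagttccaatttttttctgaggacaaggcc
The motif began 50 bases before the start in Gzma, 93 and 34 bases before it in Gzmb, 130 in Prf1 and 129 in Klrk1. Of 4 other motifs, the STAT motif TTCNNNGAA was found for 3 of the 7 genes (Nkg7, Ifng and Ctla2a, 6.77% of all windows). The AP-1 motif TGANTCA was found for 2 (Gzmb and Ctla2a, 6.58%). The ETS motif CAGGAAGT was found for 1 (Prf1, 2.54%) and the T-box motif TCACACCT for 0 (1.07%). These are letters in a window, not binding sites, and the motifs were chosen with the expression of the genes known.

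The granule genes had higher levels in NK-gated than in T-gated cells in every library. Gzma stood at 8310, 6727, 7095 and 5061 CPM in NK-gated cells of the 4 libraries and at 224, 262, 19.0 and 467 CPM in T-gated cells. A Gzma UMI was held by 88.5% of NK-gated cells against 10.0% of T-gated cells. Prf1, the most uneven of the 10 at 5 dpw while Gzma was so at 1 dpw, stood at 1428, 810, 862 and 782 CPM in NK-gated cells and 63.2, 18.1, 12.7 and 38.2 CPM in T-gated cells. Gzmb was less so: NK-gated cells had 1151, 674, 1219 and 657 CPM and T-gated cells 865, 192, 57.1 and 213 CPM, so that at 1 dpw in Angptl4+/+ wounds the T-gated level came close to the NK-gated one. Of all Gzmb UMIs of the 4 libraries NK-gated cells held 54.7% and the more numerous T-gated cells 43.0%. Nkg7, a membrane protein of the cytotoxic granule, stood at 2685, 2003, 2229 and 1746 CPM in NK-gated cells and 695, 267, 342 and 444 CPM in T-gated cells. Its UMIs were present in 99.4% of NK-gated and 41.6% of T-gated cells.

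The secreted factors Ifng and Ccl5 followed the same order. Ifng, the cytokine that activates macrophages, stood at 256, 306, 116 and 260 CPM in NK-gated cells and at 68.1, 41.2, 12.7 and 78.4 CPM in T-gated cells. Ccl5, which attracts T cells and monocytes, was at 5774, 4520, 6843 and 3778 CPM in NK-gated cells and at 3447, 701, 1515 and 1312 CPM in T-gated cells. Only 57.5% of NK-gated cells held an Ifng UMI against 94.3% for Ccl5.

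Among the receptors, Klrk1 stood at 874, 909, 631 and 895 CPM in NK-gated cells and at 228, 117, 165 and 150 CPM in T-gated cells. Klrd1 was at 554, 851, 610 and 809 CPM in NK-gated cells and at 141, 87.4, 69.7 and 113 CPM in T-gated cells. Il2rb was the most shared of the receptors, at 1662, 971, 936 and 914 CPM in NK-gated cells and 535, 238, 342 and 264 CPM in T-gated cells, and 68.4% of T-gated cells held its UMIs. Ctla2a, which encodes an inhibitor of cathepsin-like proteases, was the other broadly shared gene: it stood at 1790, 1266, 883 and 1187 CPM in NK-gated cells and 637, 446, 659 and 469 CPM in T-gated cells, with UMIs in 83.3% and 63.1% of the cells.

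**Figure D1:**
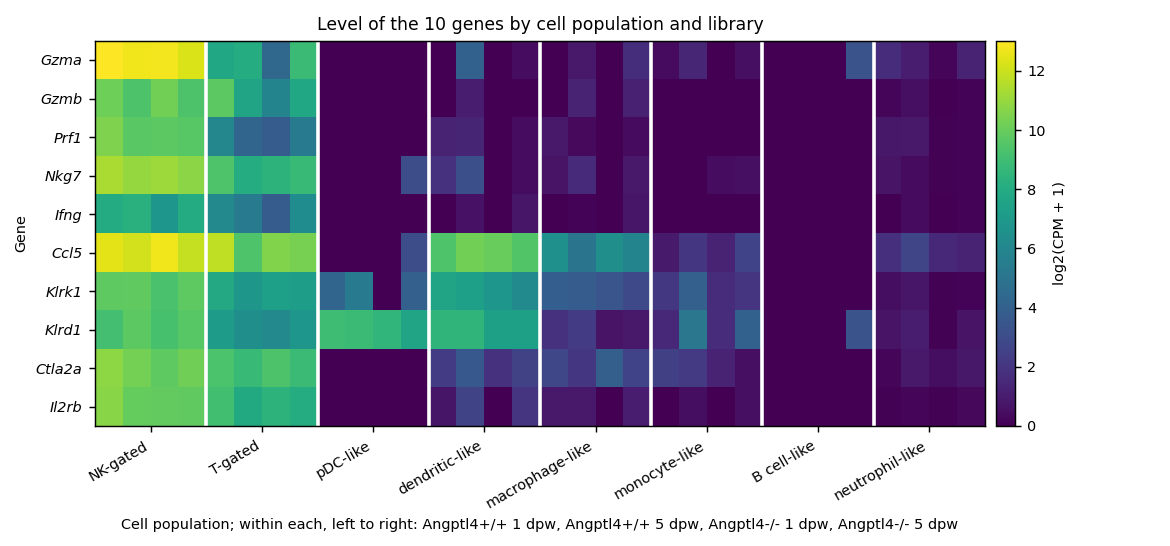
Heatmap of the level of the 10 genes (rows) in 8 cell populations, with 1 column for each library in the order given under the axis. Colour is log2(CPM + 1), without intervals, and the darkest tiles are at or near 0; the NK-gated values of Gzma lie between 5061 and 8310 CPM and the T-gated values between 19.0 and 467 CPM.

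Set against each other within a library, all 10 genes were past 2-fold higher in NK-gated than in T-gated cells in both 5 dpw libraries, where 6.19% (Angptl4+/+) and 6.46% (Angptl4-/-) of all genes with at least 20 UMIs were, and 3.90% in both. At 1 dpw 8 of the 10 were, in each genotype, against backgrounds of 9.48% and 10.5%. The log2 ratio at 5 dpw was largest for Prf1, with 5.48 (4.94 to 6.08) in the Angptl4+/+ library and 4.35 (3.96 to 4.77) in the Angptl4-/- library, followed by Gzma at 4.68 (4.54 to 4.83) and 3.44 (3.32 to 3.56). It was smallest for Ctla2a, at 1.51 (1.36 to 1.65) and 1.34 (1.19 to 1.49), and next for Gzmb in the Angptl4+/+ library, at 1.81 (1.60 to 2.03), and for Ccl5 in the Angptl4-/- library, at 1.53 (1.44 to 1.61), where Gzmb was at 1.63 (1.41 to 1.84). The members that fell short at 1 dpw were Gzmb (0.41) and Ccl5 (0.74) in Angptl4+/+ wounds, and Ctla2a (0.42) in Angptl4-/- wounds, where Ifng had too few UMIs to count. An alternative NK gate on Ncr1 and Eomes alone was added after the values were seen, with a minimum of 1 UMI in place of 2. It gave 8, 81, 12 and 69 NK-gated cells and called the same number of genes at 5 dpw. The members were picked as lymphocyte genes and some are textbook NK cell genes, so these ratios describe the cells and are not independent support for the gates.

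**Figure D2:**
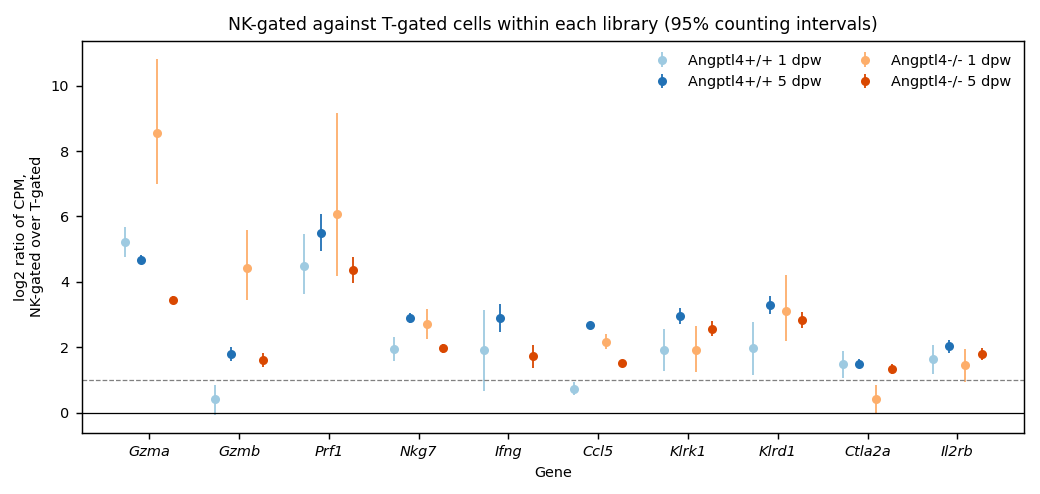
Log2 ratio of CPM of NK-gated over T-gated cells for each gene in each of the 4 libraries, with exact 95% counting intervals as bars; the solid line marks no difference, the dashed line 2-fold higher, and genes under 20 UMIs are not drawn. At 5 dpw every gene lies past 2-fold, from 1.34 for Ctla2a in Angptl4-/- wounds to 5.48 for Prf1 in Angptl4+/+ wounds.

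The T-gated level of several genes came from few cells. The 5 cells with the most Gzma held 82.1% and 89.4% of the Gzma UMIs of T-gated cells at 5 dpw (Angptl4+/+ and Angptl4-/-). For Ifng the corresponding shares were 69.7% and 70.6%, and for Ccl5 61.0% and 59.7%. At 1 dpw in Angptl4+/+ wounds 5 of the 25 T-gated cells held 94.9% of the Gzmb UMIs. By receptor and co-receptor transcripts the T-gated cells split into 32 with Trdc but not Trac (gamma delta), 82 with Cd8a or Cd8b1, 113 with Cd4 alone and 93 with none of these. UMIs of Klrk1 were found in 81.2%, 35.4%, 16.8% and 47.3% of the cells of these subsets, in that order. Gzma was found in 9.38%, 17.1%, 6.19% and 8.60% of them, and Ctla2a in 34.4%, 61.0%, 71.7% and 64.5%. Klrk1 was thus most frequent in the gamma delta subset and least in the Cd4 subset, and Ctla2a the reverse.

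Counted per cell, the median NK-gated cell held UMIs of 9 of the 10 genes and the median T-gated cell of 3. At least 8 genes were detected in 88.5% of NK-gated and 7.81% of T-gated cells, and none in 8.75% of T-gated cells. After thinning each cell to 1000 UMIs the medians were 6 and 1, and the median cell held 6730.5 UMIs in the NK gate and 7007 in the T gate. There were 29 T-gated cells that also met the NK gate, a split made after the values were seen. Their median was 7 genes, with at least 8 genes in 44.8%, against a median of 3 in the other 291 T-gated cells.

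**Figure D3:**
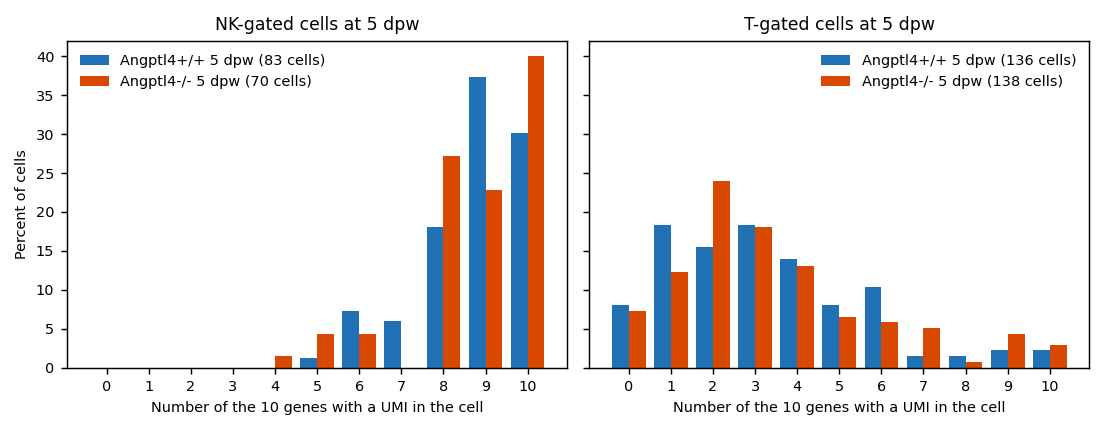
Percent of cells (vertical axis) by the number of the 10 genes with a UMI in the cell (horizontal axis), for NK-gated cells (left) and T-gated cells (right) of both 5 dpw libraries. NK-gated cells held UMIs of 4 genes or more, while T-gated cells ran from 0 to 10 genes with most at low numbers.

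In neutrophil-like, monocyte-like and macrophage-like cells Gzma, Gzmb, Prf1, Nkg7 and Ifng were near background over the 4 libraries together. By library, some macrophage-like intervals lay above the neutrophil-like ones. This held for Gzmb in the Angptl4-/- library and for Nkg7 in the Angptl4+/+ library, both at 5 dpw. The 11264 neutrophil-like cells had a median of 3976 UMIs, and their level was taken as the background. Between 0.0266% (Ifng) and 0.746% (Ccl5) of these cells held a UMI, and the level over the 4 libraries was 2.48 CPM or less. Whether the neutrophils made any of these transcripts themselves was not tested. Monocyte-like cells had 0 UMIs of Gzmb, Prf1 and Ifng in all 4 libraries, and in the 3903 macrophage-like cells Gzma, Gzmb, Prf1, Nkg7 and Ifng stood at 1.10 CPM or less over the 4 libraries. Ccl5 in macrophage-like cells was above that, at 91.2, 31.3, 89.4 and 56.7 CPM, with UMIs in 4.61% of cells. Klrk1 was also above it, at 13.6, 12.8, 9.77 and 6.34 CPM in 5.64% of macrophage-like cells. Ctla2a in macrophage-like cells ranked next after NK cell/T cell-like cells in the Angptl4+/+ library at 1 dpw and in both Angptl4-/- libraries. Its interval overlapped that of the class below it in the Angptl4+/+ library at 1 dpw and in the Angptl4-/- library at 5 dpw. Klrk1 in monocyte-like cells lay above the neutrophil-like level in all 4 libraries. Klrd1 in monocyte-like cells ranked above it too, but its interval was clear of the next lower class only in the Angptl4+/+ library at 5 dpw.

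Further exceptions were the dendritic cell-like cells (101, 284, 83 and 189 cells, median 13542 UMIs), in which Klrd1, Klrk1 and Ccl5 were high and the granule genes were not. Without the cells that met a lymphocyte gate (101, 277, 83 and 185 cells were left), Klrd1 stood at 361, 377, 167 and 169 CPM, with UMIs in 64.4%, 63.2%, 47.0% and 43.2% of cells. Klrk1 stood at 192, 162, 115 and 73.4 CPM, with UMIs in 67.3%, 64.6%, 51.8% and 40.5% of cells. Both genes were lower in the Angptl4-/- than in the Angptl4+/+ library at each day, and the intervals of the 2 genotypes did not overlap. In the same cells Nkg7 had 4, 0, 0 and 1 UMIs and Gzma 0, 1, 0 and 1. Of all Klrd1 UMIs of a library, the dendritic cell-like class with its gated cells held 81.7%, 60.1%, 68.6% and 37.6%.

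The 3 genes divided among kinds of dendritic cell, gated by transcripts after the values were seen. Cells with Cd209a (14, 62, 10 and 42 cells), the marker of monocyte-derived and type 2 conventional dendritic cells, stood at 651, 697, 242 and 244 CPM of Klrd1, above the other kinds in every library but the Angptl4-/- one at 1 dpw, where the dendritic cells that met none of these gates stood at 332 CPM. Their Klrk1 was at 260, 190, 118 and 67.3 CPM, and their Ccl5 had at most 9 UMIs in any library. Cells with Ccr7, Fscn1 and Ccl22 (59, 150, 41 and 81 cells), the genes of mature migratory dendritic cells, held the Ccl5 instead, at 1212, 2326, 1978 and 1761 CPM in 69.5% of cells. Cells with Xcr1 or Clec9a (40 cells) held 0 Ccl5 UMIs. Klrd1 was also found in the 33 plasmacytoid dendritic cell-like cells, at 495, 467, 381 and 195 CPM, where Klrk1 had 9 UMIs in all.

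**Figure D4:**
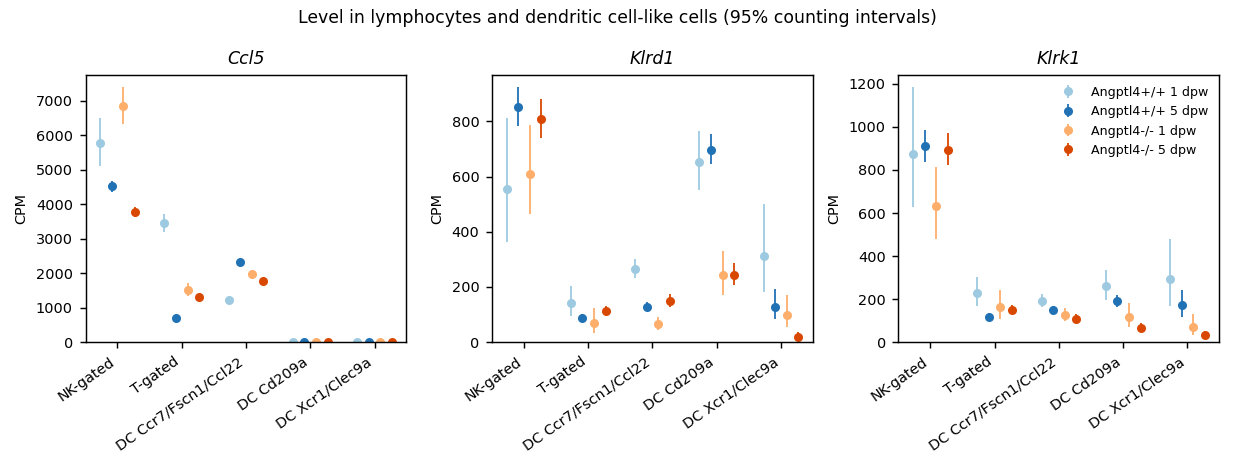
Ccl5, Klrd1 and Klrk1 in CPM (a linear axis of its own for each gene) in NK-gated cells, T-gated cells and 3 kinds of dendritic cell, 1 point for each library with its exact 95% Poisson interval. Among the 3 kinds of dendritic cell drawn, Ccl5 lies in the Ccr7, Fscn1 and Ccl22 cells (1212 to 2326 CPM), and at 5 dpw Klrd1 is highest in the Cd209a cells.

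The comparison of genotypes asked how the loss of Angptl4 went with the expression of these genes at each day. Over all passing cells 0 of the 10 genes were past 2-fold between genotypes at 1 or 5 dpw, where 3.14% and 5.12% of all genes were, and the largest difference was that of Klrd1, at -0.99 (-1.20 to -0.79) and -0.78 (-0.88 to -0.68). In the NK cell/T cell-like class Ifng was past 2-fold lower at 1 dpw, at -1.09 with 13 and 26 UMIs, 1 of 10 against 4.93% of all genes. At 5 dpw 0 of the 10 were past 2-fold there, against 4.11%, and the ratios lay between -0.35 (Gzma) and 0.12 (Ccl5). In NK-gated cells at 5 dpw the log2 ratio of Angptl4-/- over Angptl4+/+ lay between -0.41 and -0.02 for all 10 genes, and 0 were past 2-fold, where 3.15% of all genes were higher and 2.61% lower. The intervals of 3 genes lay below 0: Gzma at -0.41 (-0.48 to -0.34), Ccl5 at -0.26 (-0.34 to -0.18) and Nkg7 at -0.20 (-0.31 to -0.08). Klrd1 in these cells differed by -0.07 (-0.25 to 0.10) and Klrk1 by -0.02 (-0.19 to 0.14). At 1 dpw, with 13 and 8 cells, Ifng (-1.14, 11 and 12 UMIs) and Ctla2a (-1.02, 84 and 84 UMIs) were past 2-fold lower, 2 of 10 against 9.72% of all genes.

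In T-gated cells at 5 dpw the ratio of every gene had the other sign in the main setting, but small ratios changed sign under alternatives. In T-gated cells these were Gzmb (down to -0.04), Ctla2a and Il2rb (both down to -0.01). In NK-gated cells they were Gzmb (up to 0.16) and Il2rb (up to 0.004). The log2 ratio of Angptl4-/- over Angptl4+/+ in T-gated cells lay between 0.07 (Ctla2a) and 1.08 (Prf1, 0.41 to 1.77), and the intervals of 7 genes lay above 0. Past 2-fold was only Prf1, 1 of 10 against 2.35% of all genes, with 58 and 29 UMIs. Gzma was at 0.84 (0.66 to 1.01), Ifng at 0.93 (0.48 to 1.38), Ccl5 at 0.90 (0.80 to 1.01) and Nkg7 at 0.73 (0.56 to 0.91). When the cells that also met the NK gate were left out, 4 genes were past 2-fold higher (background 2.56%): Ifng at 2.18 (100 and 23 UMIs), Ccl5 at 1.54, Prf1 at 1.49 (27 and 10 UMIs) and Klrk1 at 1.13. Gzmb (-0.12) and Ctla2a (-0.02) did not share this. An Ifng UMI was held by 14.6% (Angptl4-/-) and 12.2% (Angptl4+/+) of the cells in this split. There 5 cells held 75% and 56.5% of the Ifng UMIs. Among all T-gated cells with Cd4 alone, Ifng had 83 UMIs (135 CPM) in Angptl4-/- and 8 UMIs (11.1 CPM) in Angptl4+/+ wounds, and Ccl5 in those with Cd8a or Cd8b1 was at 2396 and 1048 CPM. A few cells held most of these UMIs: the ratio of Gzma over all T-gated cells was 0.45 without the 2 cells of each library with the most Gzma UMIs and 0.15 as a mean of per-cell CPM, and that of Prf1 was 0.78 as such a mean, below 2-fold, while that of Ifng was 1.22 without such cells. The summed level of 5 cell cycle genes in T-gated cells was 1703 CPM in Angptl4+/+ and 935 CPM in Angptl4-/- wounds, and its part was not tested either. In T-gated cells at 1 dpw (21 and 25 cells) 5 of 8 genes with enough UMIs were past 2-fold lower in Angptl4-/- wounds (background 6.26%), among them Gzmb with 9 against 178 UMIs, of which 5 cells held 94.9%.

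In the dendritic cell-like cells without gated lymphocytes, Klrd1 was past 2-fold lower in Angptl4-/- wounds at both days: the log2 ratio was -1.11 (-1.36 to -0.87) at 1 dpw and -1.16 at 5 dpw, with an interval from -1.31 to just inside 2-fold. Klrk1 was at -0.73 (-1.04 to -0.43) and -1.14 (-1.38 to -0.90). At 1 dpw 1 and at 5 dpw 2 of the 3 genes with enough UMIs were past 2-fold lower, against 2.62% and 2.50% of all genes. In the Cd209a cells Klrd1 differed by -1.43 (-1.98 to -0.91) and -1.52 (-1.78 to -1.26). In the Ccr7, Fscn1 and Ccl22 cells it differed by -2.02 at 1 dpw and by 0.21 at 5 dpw. Klrk1 in macrophage-like cells was also lower at 5 dpw, by -1.01 (-1.52 to -0.52, 45 and 153 UMIs). Of the 7 members with enough UMIs there, 3 were past 2-fold lower and 1 higher, against 2.26% and 1.61% of all genes. The macrophage-like class was not cleared of gated lymphocytes, and in Angptl4-/- wounds at 5 dpw 1 of its cells held UMIs of 9 members. Over all libraries it also held 25 cells that met a gate on mast cell and basophil genes. The part of such cells in these counts was not tested. The interval of Klrd1 in dendritic cell-like cells at 5 dpw and that in NK-gated cells did not overlap. Klrd1 in the whole class was within 2-fold, at -0.79 and -0.88, when only cells with at least 500 genes and at most 5% mitochondrial UMIs were kept, and Klrk1 at 5 dpw was then at -0.94. Across all alternatives Klrk1 in the whole class at 5 dpw ran from -1.28 to -0.65. Ccl5 of dendritic cell-like cells was 0.53 (0.41 to 0.65) at 1 dpw and -0.75 (-0.83 to -0.68) at 5 dpw, within 2-fold at each day.

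The other killer cell receptors were read beside Klrd1. Of 12 other killer cell receptors and adaptors, 7 had enough UMIs in the dendritic cell-like cells without gated lymphocytes. Of these, Klrc1, Klre1 and Klri2 were past 2-fold lower in Angptl4-/- wounds at 1 dpw, against 2.62% of all genes. Their levels were low, at 5.36, 8.86 and 13.6 CPM in the whole dendritic cell-like class over all libraries. At 5 dpw Klre1 and Klri2 were lower and Cd226 was higher (2.50% and 2.41% of all genes). In the NK cell/T cell-like class at 5 dpw, Klrb1c, Klrb1b and Klri2 were lower, 3 of 12 against 1.64% of all genes, and 0 of the 12 higher, while Klrd1 itself differed by -0.07 (-0.23 to 0.08). Klrb1c and the Klra genes served in the NK gate, and their levels in NK-gated cells differed between libraries: Klrb1c was at 682, 566, 557 and 237 CPM and Klra7 at 170, 317, 336 and 707 CPM.

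**Figure D5:**
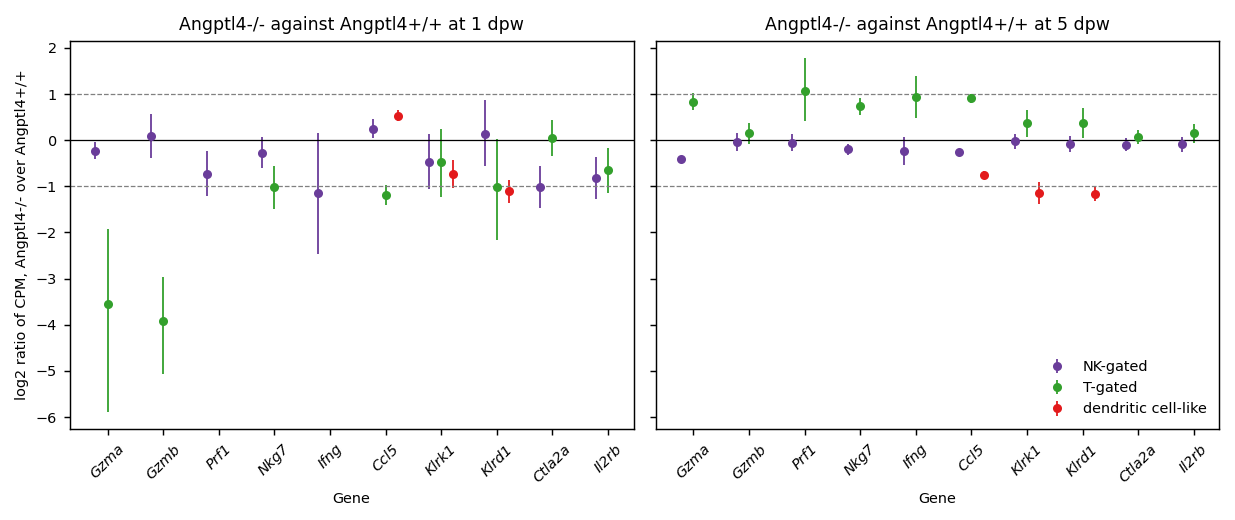
Log2 ratio of CPM of Angptl4-/- over Angptl4+/+ wounds for each gene at 1 dpw (left) and 5 dpw (right) in NK-gated, T-gated and dendritic cell-like cells, the last without gated lymphocytes, with exact 95% counting intervals as bars; dashed lines mark 2-fold and genes under 20 UMIs are not drawn. At 5 dpw the NK-gated values lie between -0.41 and -0.02, the T-gated values between 0.07 and 1.08, and Klrd1 and Klrk1 of dendritic cells at -1.16 and -1.14.

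Summed over all passing cells of a library, the 10 genes were all past 2-fold higher at 5 than at 1 dpw in both genotypes, where 34.0% (Angptl4+/+) and 30.5% (Angptl4-/-) of all genes were. In Angptl4+/+ wounds the log2 ratio ran from 1.81 (Klrk1) to 3.56 (Ifng) and in Angptl4-/- wounds from 1.52 (Ccl5) to 4.52 (Ifng), with all-gene medians of 0.71 and 0.68. The share of NK cell/T cell-like cells moved with it, from 0.655% to 4.59% and from 0.750% to 4.64% of the cells. Dendritic cell-like cells, which held much of the Klrd1, rose too. They were 101 of 5346 and 284 of 4945 cells in Angptl4+/+ wounds at 1 and 5 dpw. In Angptl4-/- wounds they were 83 of 4798 and 189 of 4738 cells. In such sums more cells of a type and more RNA per cell cannot be told apart. Under TMM scaling, which moved all ratios by -0.61 and -0.62, 10 and 9 genes stayed past 2-fold.

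Within the NK cell/T cell-like class the 10 genes did not rise together. In Angptl4+/+ wounds the intervals of 2 genes lay above 0 and those of 5 below it, and the highest ratios were those of Klrd1 (0.56) and Gzma (0.36). Gzmb (-1.42, -1.64 to -1.21) and Ccl5 (-1.09, -1.19 to -0.99) were past 2-fold lower there at 5 than at 1 dpw, 2 of 10 against 11.2% of all genes. In Angptl4-/- wounds Ifng alone was past 2-fold higher, at 1.38 (0.59 to 2.31; 285 and 13 UMIs), 1 of 10 against 12.6%. In NK-gated cells 0 of the 10 were past 2-fold in Angptl4+/+ wounds (33.3% of all genes were, in either direction), and Ifng (1.17) was higher in Angptl4-/- wounds (12.4%). In T-gated cells of Angptl4+/+ wounds 5 of the 10 were lower at 5 dpw (12.0% of all genes), among them Ccl5 at -2.30, Gzmb at -2.17 and Nkg7 at -1.38. In those of Angptl4-/- wounds 4 were higher (19.2%), among them Gzma with 709 and 3 UMIs. Summed neutrophil marker levels in NK-gated cells were 34775 and 15337 CPM at 1 dpw and 1946 and 4017 CPM at 5 dpw, and in T-gated cells 13631 and 20811 CPM against 3199 and 2143 CPM. This moves with the day in every gated population, and its part in the result was not tested.

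The wider pathway lists were read in the same way, NK-gated over T-gated cells at 5 dpw, where 6.19% (Angptl4+/+) and 6.46% (Angptl4-/-) of all genes were higher, 3.90% of them in both, and 12.0% and 11.6% lower. All 4 protease inhibitors of the list, among them Serpinb9, which shields killer cells from their own granzyme, were past 2-fold higher in both genotypes, with medians of 3.34 and 3.43 against all-gene medians of -0.12 and -0.07. Serpinb6b stood at 393 CPM and Serpinb9 at 355 CPM in NK-gated cells of all libraries and at 52.6 and 29.6 CPM in T-gated cells. Of the 12 other killer cell receptors and adaptors 9 were higher in both, Tyrobp at 2024 against 273 CPM. Ncr1 and Klrb1c of this list served in the NK gate, so their direction was set by the gate. Of the 10 genes of granule processing and release 2 (Angptl4+/+) and 3 (Angptl4-/-) were higher, Ctsw at 487 against 121 CPM, while Srgn, the granule proteoglycan, stood at 1242 and 1205 CPM. Fasl was higher and Lta lower among the 3 death ligands. Of the other granzymes 1 had enough UMIs, Gzmc, which was higher in both. Of the 7 transcription factors Tbx21 and Eomes were higher in both, but Eomes served in the NK gate, which set its direction. Of the interferon gamma receptor and response genes 0 were higher and 4 (Angptl4+/+) and 1 (Angptl4-/-) lower, Ciita in both. Neither of the Klrk1 and Klrd1 ligands with enough UMIs was past 2-fold. Of the other chemokines of killer cells, Ccl3, Ccl4 and Xcl1 were higher in both. In the list of Il2rb partners and activating cytokines, which also holds receptor chains of those cytokines, Il12rb2 and Il18rap were higher. Il2ra, at 13.1 CPM in NK-gated and 305 CPM in T-gated cells, was lower, while Il2rg stood at 264 and 256 CPM.
Between genotypes at 5 dpw in the NK cell/T cell-like class, 0 of the 10 granule processing genes and 0 of the 7 transcription factors were past 2-fold in either direction, where 4.11% of all genes were. Of 3 other granzymes with enough UMIs Gzmc was higher and Gzmf lower. Serpinb9b, 1 of the 4 protease inhibitors, and Iigp1, 1 of 9 interferon gamma receptor and response genes with enough UMIs, were lower.
Genes of the response and of ligands differed in where they lay. Cxcl10, which interferon gamma induces, stood at 430 CPM in macrophage-like cells and 9.68 CPM in NK-gated cells, while Ifngr1, a receptor chain, stood at 292 CPM in macrophage-like, 799 CPM in NK-gated and 445 CPM in T-gated cells. Of the Klrk1 ligands, Raet1d stood at 6.42 CPM in the macrophage-like class, against 0.691 CPM among NK-gated cells, and Ulbp1 the other way, at 2.60 CPM in macrophage-like, 16.6 CPM in NK-gated and 12.6 CPM in T-gated cells.

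Across 27 profiles of a class or gate in a library with at least 10 cells, the gene most like each member was often another member, and the profiles share libraries and depth. Gzma was most like Ifng (Pearson r = 0.979 of log2(CPM + 10)), Gzmb most like Nkg7 (0.983), Nkg7 and Il2rb most like each other (0.996), and Ctla2a most like Il2rb (0.992). Prf1 was most like Samd3 (0.993), Ifng like Camk2n1 (0.981), and Ccl5 and Klrk1 both like Cst7 (0.953 each), the gene of the granule inhibitor cystatin F. Klrd1 stood furthest from the rest, with r between 0.585 (Ctla2a) and 0.895 (Klrk1) to the other members and 0.928 to Cd7.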

How the data were processed

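Leukocytes of mouse wounds were profiled by droplet single-cell RNA sequencing (10x Genomics 3′ chemistry), 1 library per genotype and day. Per the labels, the deposited values are counts of UMIs per gene and barcode, made by the authors with Cell Ranger 3.1.0 on mm10, with Seurat 3.0 named for later steps. The matrices were filtered barcode lists; the steps below started from these counts.

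Cells with at least 200 genes and at most 10% mitochondrial UMIs were kept. Seurat 5.3.0 (R 4.3.3) joined the libraries with anchors on 2000 variable genes and 30 dimensions and clustered them at resolution 0.5. The 10 genes and the wider lists were kept out of the variable genes, apart from those that are markers or gate genes. Doublets were scored per library with Scrublet in scanpy 1.11.5, and the highest scores were called at an assumed rate of 0.8% per 1000 cells (789 cells), which were kept in the main values. A cluster was named from marker lists; 1 cluster of 2518 cells led by Csf3 stayed unnamed. UMIs were summed per population and library, and CPM had exact Poisson, shares exact Clopper-Pearson and log2 ratios exact conditional binomial 95% intervals, computed with scipy 1.17.1. With 1 library per group no test across samples exists, and the intervals cover counting error only, at the depth of each library (median 3735.5 to 4975.5 UMIs per passing cell). The code was tested on simulated data: for 5 dpw, 97.22% of 72 genes changed 4-fold were called in the right direction, as were 12.86% of 70 genes changed 1.5-fold, and 1.987% of 8205 unchanged genes were called. The simulated counts had counting error alone, without variation between cells, mice or libraries. These shares are therefore not error rates of the comparisons above.

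All 10 genes are named. Of each wider list up to 4 genes were to be named by UMI count in NK cell/T cell-like or in all cells; genes past 2-fold that a count of a list turns on are named beside it, chosen after their values were seen. Part of a wider list is not reported here. The genes, lists and tests were chosen with earlier results of these data known. Gates of dendritic cells and of mast cells or basophils, the split of T-gated cells by the NK gate and the NK gate of Ncr1 and Eomes were chosen after values were seen. Motifs were searched on both strands of the RefSeq promoter windows, in the 240 bases that end 11 bases before the annotated start. Windows of Ccl5, Klrd1 and Il2rb were not used here. Alternatives covered the cell filter, doublets, clustering, gates, TMM factors of edgeR 4.0.16, the weight of cells, thinning and the UMI minimum.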

Additional observations from a re-analysis of the deposited data

Results flagged for a closer look

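Differences between days or cell types in the genotype ratio (log2 of Angptl4-/- over Angptl4+/+ CPM) are given where the 2 ratios had opposite signs with intervals on opposite sides of 0. Each rests on 1 library per group, so the difference was not tested.

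Within the NK cell/T cell-like class, the ratio at 5 dpw minus that at 1 dpw was -0.90 for Gzma and 0.40 for Ccl5. Within NK-gated cells it was -0.50 for Ccl5. Within T-gated cells it was 4.39 for Gzma, 1.75 for Nkg7 and 2.09 for Ccl5, with 21 and 25 cells at 1 dpw. Within dendritic cell-like cells it was -1.28 for Ccl5, the chemokine that in these cells lay in those with Ccr7, Fscn1 and Ccl22. In the NK cell/T cell-like class the sign of the Ccl5 genotype ratio depended on the processing. Across the alternatives it ran from -0.486 to 0.339 at 1 dpw and from -0.205 to 0.182 at 5 dpw.

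The ratio in T-gated cells minus that in NK-gated cells was -1.43 for Ccl5 at 1 dpw. At 5 dpw it was 1.25 for Gzma, 0.93 for Nkg7 and 1.16 for Ccl5. The Gzma value rests on few T-gated cells, as given with that comparison.

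Barcodes that did not pass the cell filter also held transcripts of the 10 genes. In Angptl4+/+ wounds at 5 dpw 21 of 107 such barcodes held 273 UMIs of them, and 4 of the 107 met a lymphocyte gate. In Angptl4-/- wounds at 5 dpw 5 of 34 such barcodes held 10 UMIs. In the former library the 273 UMIs came to 1142 CPM of the failing barcodes, against 823 CPM of the passing cells.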

How the results depend on the processing

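Ratios of single genes were recomputed under alternatives only in some comparisons. These were the ratios in the NK cell/T cell-like class and the genotype ratios in NK-gated and T-gated cells. Genotype ratios of Klrd1 and Klrk1 in dendritic cell-like cells were recomputed too. No recomputed ratio that was past 2-fold in the main setting changed sign under an alternative with enough UMIs. Other ratios, such as NK-gated over T-gated, were not checked for sign. Smaller ratios were not counted in this way, and some changed sign. In the NK cell/T cell-like class Nkg7 between days in Angptl4+/+ wounds ran from -0.43 to 0.17. Ifng between genotypes at 5 dpw ran there from -0.63 to 0.39. In the NK cell/T cell-like class the number of the 10 genes past 2-fold between genotypes at 1 dpw, 1 in the main setting, was 2 with at least 500 genes and at most 5% mitochondrial UMIs, 2 with no filter on cells, 2 with TMM, 0 with no anchors, 0 with gates and no cluster, and 0 as a mean of per-cell CPM. The number between days in Angptl4+/+ wounds, 2 in the main setting, was 1 with the stricter filter, with doublets left out, with gates and no cluster, with TMM and as a mean of per-cell CPM. In Angptl4-/- wounds it was 3 in place of 1 after thinning. NK-gated against T-gated cells gave 4 (Angptl4+/+) and 5 (Angptl4-/-) genes at 1 dpw after thinning, in place of 8. Over all passing cells 1 gene in place of 0 was past 2-fold between genotypes at 1 dpw, both as a mean of per-cell CPM and after thinning. The stricter filter gave 3.58% and 3.42% NK cell/T cell-like cells at 5 dpw. The cause was not tested, other than that thinning and stricter filters leave fewer UMIs. TMM moved the 5 over 1 dpw ratios over all cells by -0.61 and -0.62. In T-gated cells the genotype ratio of Gzma at 5 dpw ran from 0.15 to 0.93. In dendritic cell-like cells at 5 dpw that of Klrd1 ran from -1.51 to -0.88 and that of Klrk1 from -1.28 to -0.65. No paired analysis was possible because each group held 1 library.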
